A study of Mus musculus with 19 samples.

Results

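The nuclear genes of mitochondrial oxidative phosphorylation were followed through 19 poly(A) RNA-seq libraries of differentiating mouse embryonic stem cells. Members were the entries of the deposited expression table whose names begin with Nduf, Uqcr, Cox4 to Cox8 or Atp5, together with Sdha, Sdhb, Sdhc and Sdhd, leaving out pseudogenes. An entry also had to reach 1 FPKM (fragments per kilobase of transcript, relative to all mapped fragments) in at least 2 libraries. Of the 38424 entries, 92 carried such a name and 90 passed the floor. The remaining ones were Cox7b2, which reached at most 0.343 FPKM, and Cox8b, which was listed at 0 in every library. The 90 members were 7 core subunits, 29 accessory subunits and 7 assembly factors of complex I, the last with Nduf names. The others were 4 subunits of complex II, 8 Uqcr subunits of complex III, 18 subunits of complex IV and 17 genes with Atp5 names, grouped as ATP synthase.

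Oxidative phosphorylation moves electrons from NADH through complex I, or from succinate through complex II, by ubiquinone to complex III, and then by cytochrome c to oxygen at complex IV. Complexes I, III and IV pump protons across the inner mitochondrial membrane, and ATP synthase uses the returning protons to make ATP. Mitochondrial DNA encodes a few core subunits of every complex except complex II, and the nucleus encodes all the others. Pluripotent cells are known for high glycolytic flux, and differentiation is commonly accompanied by a shift towards respiration.

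Each library came from cells carrying a short hairpin RNA, either a control hairpin or one against a long non-coding RNA that neighbours a developmental transcription factor gene, or against EVX1 itself. In the first kind of culture, 129S4/SvJae stem cells were kept without leukaemia inhibitory factor (LIF), the cytokine that sustains self-renewal, in medium with 15% heat-inactivated serum. These libraries were control (1) and shEvx1as (2) in line CJ7 at day 4, and in line CJ9 control (1) and shEVX1 (2) at day 4, control (1) and shLhx1os (1) at day 6, and control (2) and shFendrr (2) at day 5. In the second kind, cells of line 46c, which carries a green fluorescent reporter at the neural gene Sox1, received 5 nM retinoic acid in serum-free N2B27 medium for 4 days, as control (2), shNr2f1as (2), shSox21os (1) and shPou3f3os (2). No library was made from undifferentiated cells, and the labels do not say what numbered libraries of a group share. The p-values therefore measure only the spread between libraries within the groups of 2.

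Library totals lay between 559050 and 655315 FPKM. The marker Sox1 of the neural plate was at 83.3 to 111 FPKM in the 7 retinoic acid libraries and at no more than 2.91 FPKM in the 12 LIF-withdrawal libraries, where T (brachyury), a primitive streak marker, was at 20.9 to 326 FPKM. The 2 retinoic acid controls stood apart from each other: the 3 pluripotency markers Pou5f1, Nanog and Zfp42 summed to 60.2 FPKM in replicate 1 and 376 FPKM in replicate 2, against 254 to 867 FPKM over the LIF-withdrawal libraries. Evx1 was at 30.2 and 37.0 FPKM in shEVX1 beside 53.9 FPKM in its control, the Evx1as entry at 0.354 and 0.290 FPKM in shEvx1as against 1.66 FPKM, and Fendrr at 0.358 and 0.0768 FPKM in shFendrr against 1.10 and 1.49 FPKM. For Lhx1os the table lists 0 beside 0.0883 FPKM. The Pou3f3os entry (2610017I09Rik) was at 2.40 and 4.13 FPKM and at 5.20 and 1.98 FPKM in its controls, so the values overlap and these libraries are called below by their label only. Entries for Nr2f1as and Sox21os were not analysed here.

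Promoter windows from RefSeq (build GRCm38.p6, 250 bases before to 50 bases after the gene start) were matched to 74 of the 90 members by symbol or unique synonym. The 4 motifs below, which are commonly reported at promoters of respiratory genes, were searched on both strands. GCGCATGC, a core of the NRF1 site, was in 12 member promoters (16.2%) against 3.05% of 27025 genes with a window, and CCGGAAG, an ETS site of the kind bound by GABP, was in 17 (23.0%) against 9.93%. AAGATGGC, a YY1 site, was in 11 (14.9%) against 3.19%, and AAGGTCA, an oestrogen-related receptor half-site, was in 8 (10.8%) against 5.38%. No motif was found in 36 members. A match describes the letters and shows no binding. The 27025 genes were not limited to genes expressed here, so these shares do not show that the motifs are particular to respiratory genes. The bases before the start are printed below for the pair of members with the largest rises and the pair with the largest falls, between the control libraries of both cultures, among the members named for that comparison that have 1 window. Capitals mark the searched motifs.
Atp5k (chr5:108434400-108434649, minus strand): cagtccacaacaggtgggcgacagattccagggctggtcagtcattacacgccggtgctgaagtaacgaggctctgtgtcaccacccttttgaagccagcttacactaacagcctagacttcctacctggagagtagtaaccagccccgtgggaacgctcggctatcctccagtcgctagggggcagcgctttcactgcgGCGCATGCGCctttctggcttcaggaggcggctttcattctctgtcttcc
Uqcr11 (chr10:80406822-80407071, minus strand): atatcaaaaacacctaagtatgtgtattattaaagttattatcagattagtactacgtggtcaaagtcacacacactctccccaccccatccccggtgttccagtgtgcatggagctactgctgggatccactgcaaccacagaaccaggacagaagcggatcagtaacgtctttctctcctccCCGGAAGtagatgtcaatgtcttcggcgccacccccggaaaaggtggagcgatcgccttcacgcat
Cox7a2 (chr9:79759854-79760103, minus strand): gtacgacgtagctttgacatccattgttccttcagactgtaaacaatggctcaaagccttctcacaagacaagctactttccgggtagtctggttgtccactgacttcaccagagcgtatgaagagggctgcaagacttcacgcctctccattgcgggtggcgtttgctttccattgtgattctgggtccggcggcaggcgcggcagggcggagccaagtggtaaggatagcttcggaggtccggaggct
Atp5f1 (RefSeq symbol Atp5pb, chr3:105959264-105959513, minus strand): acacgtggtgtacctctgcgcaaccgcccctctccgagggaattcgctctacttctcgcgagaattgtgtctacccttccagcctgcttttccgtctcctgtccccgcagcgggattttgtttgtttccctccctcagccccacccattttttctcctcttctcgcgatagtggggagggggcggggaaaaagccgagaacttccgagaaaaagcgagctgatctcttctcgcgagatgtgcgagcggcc
In the stretch of Atp5k the NRF1 letters read on both strands and overlap in 1 palindrome, and in the stretch of Uqcr11 the capitals are the ETS letters. The stretches of Cox7a2 and Atp5f1 hold none of the 4 motifs. In the rest of the window, which is not printed, or across the start, Atp5k held the ETS and receptor letters, Uqcr11 the NRF1 letters and Atp5f1 the YY1 letters.

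Together the 90 members made up 2.10 to 2.91% of all FPKM in a library. The lowest sum was 12908 FPKM, in shLhx1os, and the highest was 18765 FPKM, in retinoic acid control replicate 2, followed by 17362 FPKM in shEvx1as replicate 2. The sums of the LIF-withdrawal libraries (12908 to 17362 FPKM, median 13864) and of the retinoic acid libraries (14836 to 18765 FPKM, median 16073) overlapped. Summed complex II subunits were at 304 to 347 FPKM in the 12 LIF-withdrawal libraries and at 414 to 463 FPKM in the 7 retinoic acid libraries, with no overlap, while the accessory subunits of complex I lay at 2799 to 3713 and 3468 to 4420 FPKM. Complex IV sums overlapped most widely, at 4028 to 5730 FPKM and 4407 to 5288 FPKM.

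**Figure D1:**
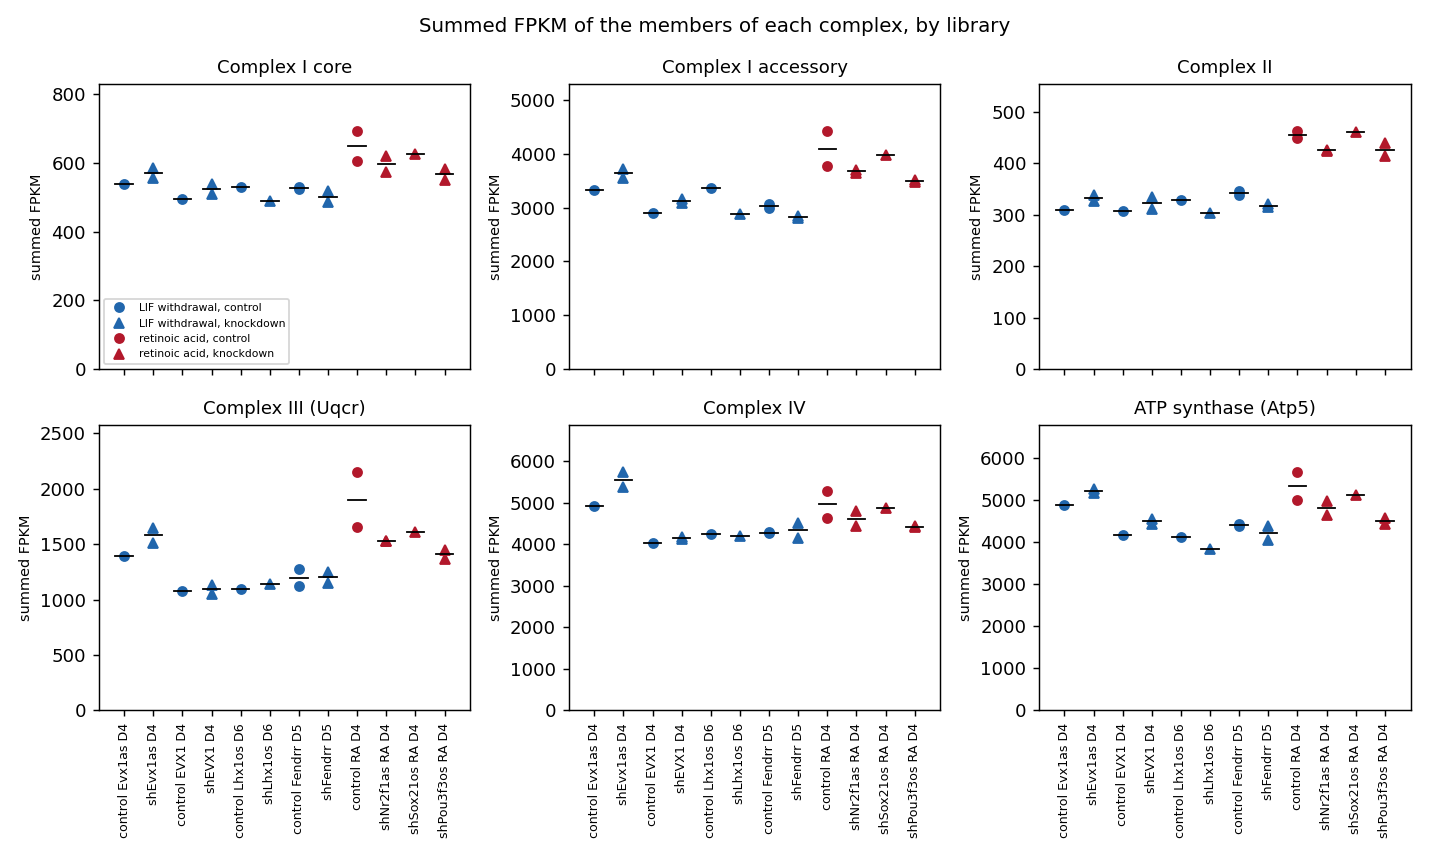
Summed FPKM (y axis, from 0) of the members of each complex in each library, by group (x axis). Circles are control and triangles knockdown libraries, blue for LIF withdrawal and red for retinoic acid, and black lines are group means. Complex II separates the 2 cultures (304 to 347 against 414 to 463 FPKM), and complex IV does not.

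Levels between genes, compared per length as FPKM, covered a wide range. Of the members, 46 averaged 100 FPKM or more, 8 averaged under 5 FPKM and 84 reached 1 FPKM in all 19 libraries. The highest means were those of Atp5g2 (802 FPKM), which encodes the c subunit of the proton-driven ring, Cox8a (765 FPKM), Cox6a1 (721 FPKM) and Cox5b (651 FPKM) of complex IV, and Atp5b (632 FPKM), the catalytic beta subunit of ATP synthase. Among the complexes before it, the most abundant were Uqcr11 (440 FPKM) in complex III, Sdhc (142 FPKM), a membrane anchor of complex II, and Ndufa7 (332 FPKM) among the accessory subunits of complex I. The assembly factors were scarce, from 1.72 FPKM for Ndufaf5 to 36.5 FPKM for Ndufaf2. Between its lowest and highest library a member ranged over a median of 1.10 on the log2(FPKM + 1) scale. The narrowest range was 0.45 for Cox6b1, and 7 members ranged over more than 2, led by Uqcrb (5.29), Cox7a2 (3.69), Uqcrc2 (3.21) and Ndufa4l2 (3.16). As a description over 19 libraries, several of which share a culture, the correlation of a member with the mean of the others on this scale had a median of 0.30. It was above 0.5 for 14 members, highest for Atp5c1 (0.75) and Cox8a (0.72), and below 0 for 13.

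To compare the cultures, the 2 retinoic acid controls were set against the 5 LIF-withdrawal controls, giving each of the 4 LIF-withdrawal control groups equal weight. Differences between those 4 groups, which vary in line, day and experiment, do not enter the SE or the p-values. Line, genetic background, medium, retinoic acid and differentiation route differ together here and cannot be told apart, and in bulk RNA a change in the share of a cell type cannot be told apart from a change within cells. By limma with Benjamini-Hochberg adjustment over all 14942 entries tested at 0.05, 37 of 90 members (41.1%) were higher and 16 (17.8%) were lower in the retinoic acid controls, beside 30.3% and 29.5% of all entries. The median change of the members was 0.17 on the log2 scale, beside 0.00 for all entries. Cox6a2 and Cox8c met the floor only through retinoic acid libraries, and Ndufa4l2 only through LIF-withdrawal libraries, so their differences are partly set by the floor. Over entries meeting the floor in each culture by itself, a choice made after seeing the data, 36 of 87 members were higher and 15 lower, beside 31.4% and 27.9% of entries. Of the 37 rises, 14 were of accessory subunits of complex I, and the largest fall (-2.15) exceeded the largest rise (1.24) in size.

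**Figure D2:**
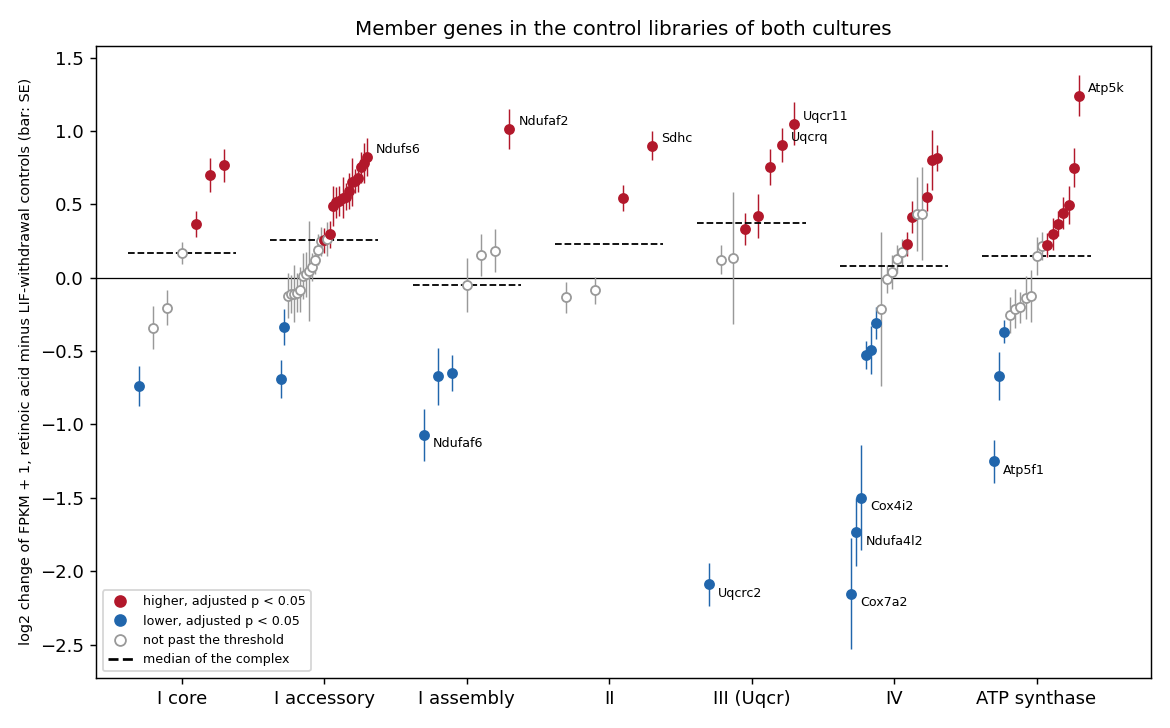
Log2 change of FPKM + 1 between retinoic acid and LIF-withdrawal controls (y axis, bars are SE) for each of the 90 members, grouped by complex (x axis), with dashed lines at the median of each complex. Filled red and blue points passed adjusted p 0.05 (limma). Uqcrc2 (-2.09) lies below every other Uqcr subunit, and Cox7a2 (-2.15), Ndufa4l2 (-1.74) and Cox4i2 (-1.50) are the lowest points of complex IV. Ndufa4l2 met the floor only through LIF-withdrawal libraries, where it is high.

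In complex I, the entry point of electrons from NADH, 14 of 29 accessory subunits rose and 2 fell, and 3 of 7 core subunits rose and 1 fell. These counts, and those of the other complexes below, stand beside 30.3% higher and 29.5% lower of all entries. The accessory subunit Ndufs6, which carries a zinc-binding site, was at 371 and 483 FPKM in retinoic acid controls and at 176 to 296 FPKM (median 217) in the LIF-withdrawal controls. The groups did not overlap and the log2 change was 0.83 ± 0.13 (SE, adjusted p = 0.000283). The core subunits Ndufs7 and Ndufs8, which carry iron-sulphur clusters, rose by 0.70 ± 0.12 and 0.77 ± 0.11. Ndufs1, the largest core subunit, fell from 30.5 ± 9.85 FPKM (SD, n = 5) to 16.0 ± 3.22 FPKM (SD, n = 2), a log2 change of -0.74 ± 0.13 (adjusted p = 0.000732). The accessory subunit Ndufa9 fell with it (-0.69 ± 0.13). Among the 7 assembly factors 1 rose and 3 fell. Ndufaf2, an assembly chaperone that is a paralog of a complex I subunit, was at 58.2 and 61.6 FPKM against 23.9 to 34.2 FPKM (1.02 ± 0.14, adjusted p = 9.08e-05), whereas Ndufaf6 was at 4.81 and 5.23 FPKM against 10.02 to 17.0 FPKM (-1.07 ± 0.18, adjusted p = 0.000417).

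Complex II oxidises succinate and is shared with the citric acid cycle. Sdhc was at 199 and 224 FPKM in retinoic acid controls and at 97.6 to 128 FPKM in the LIF-withdrawal controls, a log2 change of 0.90 ± 0.10 (adjusted p = 2.44e-05). Sdhb, the iron-sulphur subunit, was at 147 and 134 FPKM against 90.1 to 103 FPKM (0.55 ± 0.09, adjusted p = 0.000353). Sdha, the flavoprotein, and Sdhd, the second anchor, did not pass (-0.13 ± 0.10 and -0.08 ± 0.09). The subunits that passed are the anchor and the iron-sulphur protein, and both were above every LIF-withdrawal library in all 7 retinoic acid libraries.

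In complex III, which passes electrons to cytochrome c, 5 of 8 Uqcr subunits rose and 1 fell. Uqcrq was at 243 and 296 FPKM against 112 to 218 FPKM, and Uqcr11 at 566 and 859 FPKM against 281 to 421 FPKM. Both small subunits were above every LIF-withdrawal control, with log2 changes of 0.91 ± 0.12 (adjusted p = 6.55e-05) and 1.05 ± 0.14 (adjusted p = 0.000108). Uqcrc2, one of the pair of large core proteins, went the other way. It was at 7.96 and 6.05 FPKM in retinoic acid controls and at 19.3, 26.4, 36.6, 60.3 and 63.9 FPKM in the Evx1as, EVX1, Lhx1os and both Fendrr controls, a log2 change of -2.09 ± 0.15 (adjusted p = 1.13e-06). All 7 retinoic acid libraries were at 5.99 to 9.12 FPKM and all 12 LIF-withdrawal libraries at or above 19.3 FPKM. The other core protein, Uqcrc1, did not pass (0.12 ± 0.10). Uqcrc2 overlaps Pdzd9 in the table, which was at no more than 0.453 FPKM in any library.

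Complex IV reduces oxygen, and 5 of its 18 members rose while 6 fell, or 4 and 5 without Cox6a2 and Ndufa4l2, which met the floor through 1 culture. Cox5b, a nuclear subunit on the matrix side, was at 858 and 1031 FPKM against 465 to 606 FPKM (0.82 ± 0.09, adjusted p = 2.02e-05). Cox7a2, the broadly expressed form of a small membrane subunit, was at 30.0 and 8.44 FPKM in retinoic acid control replicates 1 and 2, beside 68.8 to 85.3 FPKM in the LIF-withdrawal controls (-2.15 ± 0.38, adjusted p = 0.000575). Its size rested on the retinoic acid controls: the change was -1.29 without replicate 2 and -3.01 without replicate 1. Cox7c rose (0.55 ± 0.10) and Cox7b fell (-0.53 ± 0.10). Cox4i1, the broadly expressed regulatory subunit, fell slightly (-0.31 ± 0.11, adjusted p = 0.0284).

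Among the 17 genes with Atp5 names, grouped here as ATP synthase, 7 rose and 3 fell. They include Atp5s and Atp5sl, taken by name only, whose RefSeq symbols are Dmac2l and Dmac2. Atp5k, which encodes the e subunit of the membrane part, showed the largest rise of any member at 748 and 876 FPKM against 302 to 413 FPKM (1.24 ± 0.14, adjusted p = 3.03e-05). Atp5f1, the b subunit of the peripheral stalk, was at 43.5 and 30.0 FPKM against 78.4 to 115 FPKM (-1.25 ± 0.15, adjusted p = 3.77e-05). Atp5f1 overlaps Wdr77, which was itself lower in the retinoic acid libraries at 13.0 to 25.7 FPKM against 31.4 to 52.7 FPKM, and since no source here states whether strand was used in counting, reads of the pair cannot be told apart. Atp5b fell by 0.37 ± 0.08 (adjusted p = 0.00177), and the alpha subunit Atp5a1 rose by 0.22 ± 0.08 (adjusted p = 0.0345). The 3 genes Atp5g1 to Atp5g3 encode the same mature c subunit. Atp5g1 and Atp5g2 rose (0.75 ± 0.13 and 0.44 ± 0.11) and Atp5g3 did not pass (-0.20 ± 0.11). Atp5g3 supplied 17.8 to 27.5% of the summed FPKM of these 3 genes in the LIF-withdrawal libraries and 10.9 to 13.6% in the retinoic acid libraries, with no overlap. Such paralogs share sequence, so the split depends on how reads were assigned.

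**Figure D3:**
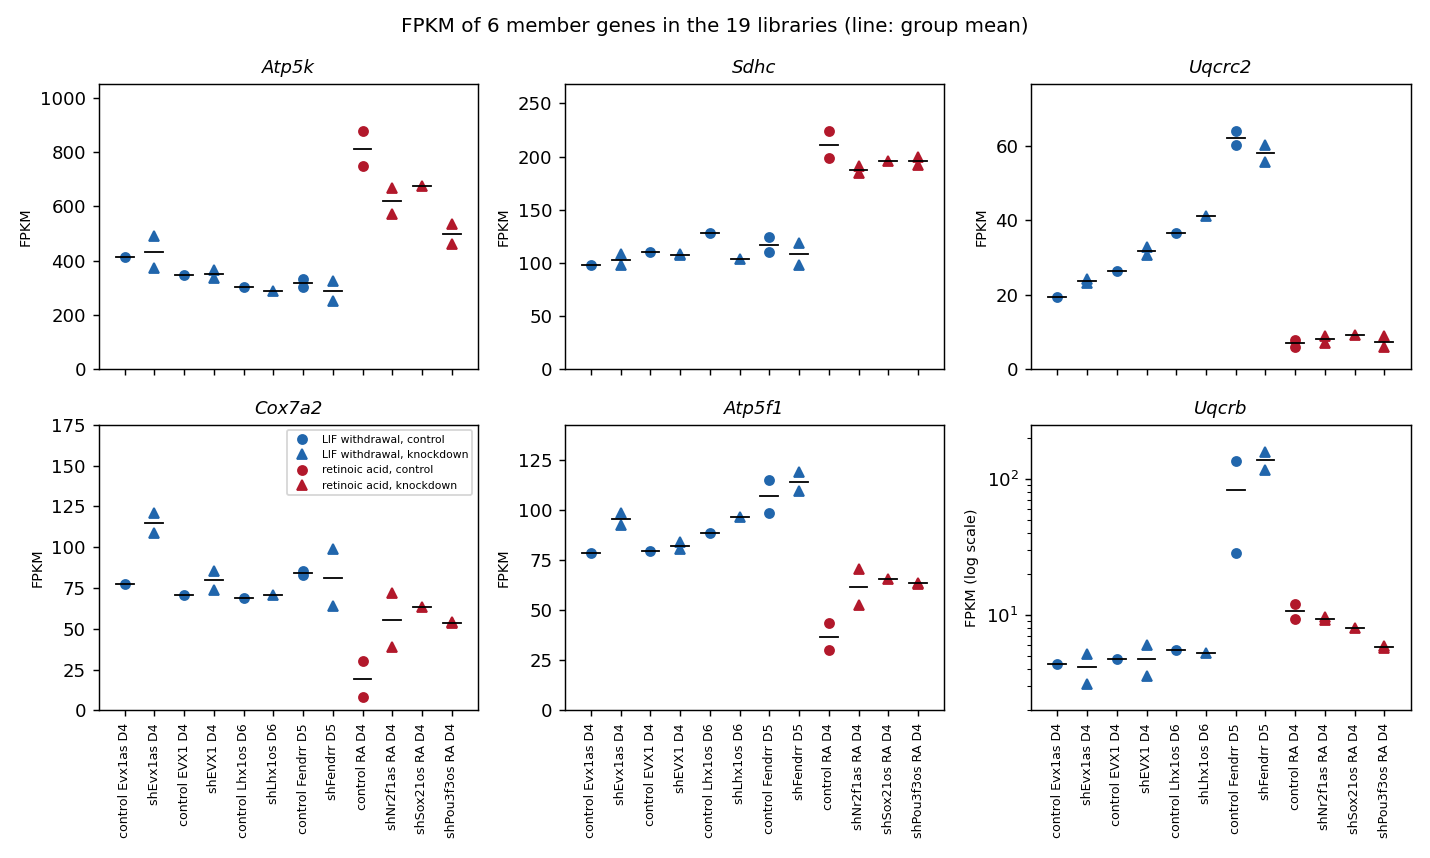
FPKM (y axis, log scale for Uqcrb) of 6 member genes in each of the 19 libraries by group (x axis), with black lines at group means, circles for controls and triangles for knockdowns. Sdhc (98 to 128 against 184 to 224 FPKM), Uqcrc2 and Atp5f1 separate the blue LIF-withdrawal from the red retinoic acid libraries. Uqcrb is high only in the 4 libraries of the Fendrr experiment, and Cox7a2 is lowest in the 2 retinoic acid controls.

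The tissue-restricted isoforms were mostly low. Cox6a2, the isoform of heart and skeletal muscle, was at 0.964 and 0.550 FPKM in retinoic acid controls and listed at 0 in all 5 LIF-withdrawal controls. It reached 1 FPKM in 2 retinoic acid libraries and in no other, so its culture difference is given with no test. Cox4i2, an isoform of lung and of hypoxic cells, fell from 3.32 ± 1.34 FPKM (SD, n = 5) to 0.363 ± 0.160 FPKM (SD, n = 2), and supplied at most 1.24% of the Cox4i sum in any library. Ndufa4l2, a hypoxia-inducible relative of Ndufa4, was lower, from 6.08 ± 2.69 to 0.876 ± 0.675 FPKM. It reached 1 FPKM in all 12 LIF-withdrawal libraries and 1 retinoic acid library. Since it met the floor only through the culture where it was high, its difference is also given with no test. It overlaps Shmt2, which was at 105 and 112 FPKM in retinoic acid controls and 64.1 to 86.9 FPKM in the LIF-withdrawal controls. Cox6b2, known from testis, was far more abundant at 33.8 to 160 FPKM and made up 9.95 to 22.9% of the Cox6b sum in the LIF-withdrawal libraries and 17.0 to 30.5% in the retinoic acid libraries. Cox7a1, the heart and muscle isoform, was at 4.16 to 36.0 FPKM with overlapping cultures. In retinoic acid control replicate 2, Cox7a2 was at 8.44 FPKM and Cox7a1 at 26.7 FPKM, its highest retinoic acid value. Cox7a1 made up 76.0% of the Cox7a1 and Cox7a2 sum there. Cox8c stayed at or below 1.25 FPKM.

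These culture differences were compared with what else differed between the libraries. The median deviation from the gene means in transcripts above the upper quartile of GC content minus that in transcripts below the lower quartile was 0.26 to 0.65 on the log2 scale in the retinoic acid libraries, -0.62 to -0.38 in the Fendrr experiment and -0.28 to 0.10 in the other 8. Over 89 members with a transcript sequence, the rank correlation of the culture change was 0.32 with GC content and -0.35 with transcript length. After the trend of each library with GC was taken out, an alternative chosen after seeing the data, 34 members were higher and 14 lower of 89, beside 30.4% and 30.6% of the 11949 entries with a GC value, and the median change was 0.13. Uqcrc2 (-1.87), Cox7a2 (-2.23), Atp5f1 (-0.95), Atp5k (1.04) and Sdhc (0.72) stayed past the threshold in that fit. With all 4 retinoic acid groups set against all 8 LIF-withdrawal groups, also chosen after seeing the data, 42 members were higher and 27 lower, beside 38.6% and 35.9% of all entries. The 51 members called in both fits had the same direction, but both fits include all the control libraries, so this is no independent support. Without retinoic acid control replicate 2, the library with the high pluripotency markers, 26 members were higher and 14 lower, beside 25.5% and 24.5% of all entries. The part of these markers in the culture differences was not tested.

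Few members separated all 7 retinoic acid from all 12 LIF-withdrawal libraries. Atp5g2, Cox5b, Ndufb8, Sdhb and Sdhc were higher in every retinoic acid library, 5.56% of members beside 15.5% of all entries. Atp5b, Atp5f1, Cox4i1, Ndufa9, Ndufaf1, Ndufaf6 and Uqcrc2 were lower in every one, 7.78% beside 12.1%. The difference between these shares was not tested.

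Uqcrb, a small subunit of complex III that binds ubiquinone, was high only in the 4 libraries of the Fendrr experiment, controls and knockdown alike. These are also the only libraries from day 5 and those with the most negative GC trend, so experiment, day and GC trend cannot be told apart. It was at 28.9 and 136 FPKM in the Fendrr controls and 159 and 116 FPKM in shFendrr. In the other 15 libraries it was at 3.10 to 12.1 FPKM. This gene was singled out after its values were seen. Only 40 entries, 0.268% of those tested, had all 4 libraries of that experiment more than 2-fold above every other library, and Uqcrb was the only member. Of the other 39, 3 were on mitochondrial DNA or on the lists by function described below. They were the mitochondrially encoded Cox2, at 485 to 1967 FPKM against at most 213 FPKM, 2010107E04Rik, a further nuclear respiratory gene, at 194 to 334 FPKM against at most 56.2 FPKM, and Vdac3, a porin of the outer mitochondrial membrane, at 59.9 to 100 FPKM against at most 27.1 FPKM. The culture difference of Uqcrb did not pass (0.14 ± 0.45), and its sign on the log scale is opposite to that of the mean FPKM, 10.8 against 36.0 FPKM, because of these libraries.

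The 3 knockdowns in retinoic acid share the same 2 controls, so their values are given side by side only. In the libraries labelled shPou3f3os, 2 of 90 members (2.22%) passed limma's adjusted threshold beside 2.32% of all entries. Uqcrq was at 160 and 166 FPKM, below the controls at 243 and 296 FPKM, a log2 change of -0.72 ± 0.14 (adjusted p = 0.0331). Atp5f1 was at 63.6 and 63.0 FPKM against 43.5 and 30.0 FPKM (0.79 ± 0.17, adjusted p = 0.0463). At an unadjusted p under 0.05, 5 members were higher and 30 lower, 5.56% and 33.3%, beside 13.2% and 7.58% of all entries. Both libraries were below both controls for 43 members and above both for 13, beside 21.6% and 31.5% of all entries. The median member change was -0.17, beside 0.04. By complex, the median ranged from -0.35 for the Uqcr subunits, 7 of 8 of them with a value below 0 beside 44% of all entries, and -0.24 for the accessory subunits of complex I to -0.08 for its assembly factors. Atp5k was at 536 and 460 FPKM against 748 and 876 FPKM (-0.70 ± 0.17, adjusted p = 0.0555).

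These values rest on which control is used. Control replicate 2 had the higher value for 66 of 90 members (73.3%), beside 47.9% of all entries, and it is the control with the high pluripotency markers and the strongest GC trend (0.65 against 0.39 in replicate 1). Without replicate 1, 16 members (17.8%) passed in shPou3f3os, beside 8.3% of all entries. Without replicate 2 none did, beside 0.141%, and Uqcrq changed by -0.58 (adjusted p = 0.202) and Atp5f1 by 0.53 (adjusted p = 0.254). None passed without shPou3f3os replicate 1, where no entry of any kind did, or without replicate 2, beside 0.0201%. In each of these fits 1 arm is a single library, which is assumed to vary like the other groups. The median member change ran from -0.28 to -0.13 over the 4 fits that left out 1 of these libraries. The pluripotency markers summed to 69.8 and 68.9 FPKM in the libraries labelled shPou3f3os, 135 and 256 FPKM in shNr2f1as and 240 FPKM in shSox21os, all between the controls. Of 3 fibroblast markers, Col1a1 and Col1a2 were above both controls in all 5 knockdown libraries and Thy1 was not, and their sums were 18.3 to 47.0 FPKM against 9.70 and 11.1 FPKM. The part of the controls' and markers' differences in these changes was not tested.

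In shNr2f1as no member passed limma's adjusted threshold, beside 0.676% of all entries. At an unadjusted p under 0.05, 6 were higher and 15 lower (6.67% and 16.7%), beside 10.5% and 7.55%. Both libraries were below both controls for 34 members and above both for 10, beside 20.8% and 25.5%. The lowest p-values included Ndufa1, an accessory subunit of complex I, at 82.2 ± 0.727 against 121 ± 1.10 FPKM (SD, n = 2 each; log2 change -0.56 ± 0.12, limma adjusted p = 0.0613), and Ndufaf2 at 36.4 ± 6.40 against 59.9 ± 2.40 FPKM (-0.71 ± 0.16, adjusted p = 0.062). The median member change was -0.13, beside 0.04. Without control replicate 1, 5 members passed (5.56%), beside 2.62% of all entries. Over the entries with a GC value, 2 of 89 passed beside 1.63% before the GC trend was taken out, and 4 beside 2.29% after it. In shSox21os, with 1 library, none passed beside 0.0669% of entries, and 4 and 2 were higher and lower at an unadjusted p under 0.05, beside 6.93% and 4.48%. The median change there was -0.04, beside 0.03. Without control replicate 1, which leaves 1 library against 1, 3 members passed (3.33%), beside 1.24% of all entries. Cox7a2 was above both controls in all 5 knockdown libraries, at 72.0 and 38.6 FPKM in shNr2f1as, 63.5 FPKM in shSox21os and 53.7 and 53.9 FPKM in shPou3f3os, against 30.0 and 8.44 FPKM. None of these 3 differences passed (limma adjusted p = 0.0966, 0.233 and 0.0695). Their size rests on which control is used, since replicate 2 (8.44 FPKM) was far below replicate 1 (30.0 FPKM). A fit without either of them has a single control library, so no call from such a fit is given for Cox7a2.

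**Figure D4:**
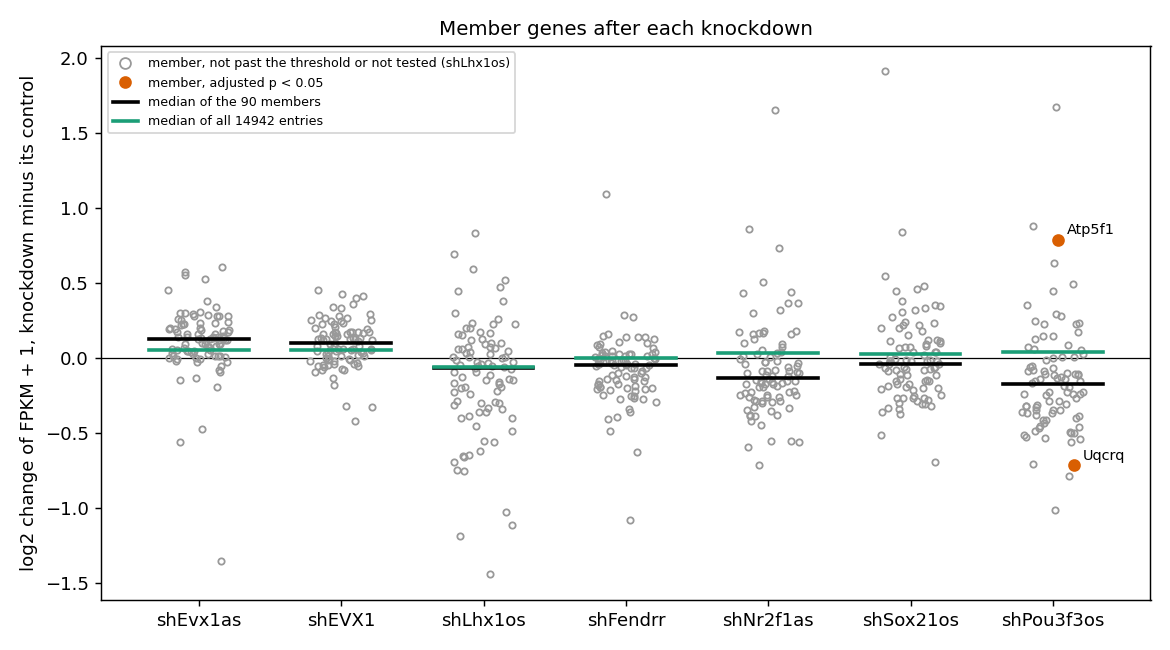
Log2 change of FPKM + 1 (y axis) of each of the 90 members in each knockdown against its own control (x axis). Black lines are medians of the members and green lines medians of all 14942 entries tested. The 2 filled points, Uqcrq and Atp5f1, passed adjusted p 0.05 (limma) in the libraries labelled shPou3f3os, where the median of the members was -0.17. The single pair of shLhx1os libraries was not tested.

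After LIF withdrawal, no member passed in any tested knockdown. In shEvx1as, limma called 0.00669% of all entries and no member, and 4 members were higher and 1 lower at an unadjusted p under 0.05, beside 2.78% and 1.59%. The median member change was 0.13, beside 0.05. T was at 105 and 25.9 FPKM there beside 143 FPKM in the control, and its part was not tested. Cox7a2 was at 109 and 121 FPKM against 77.6 FPKM in its 1 control (0.56 ± 0.55). In shEVX1 the same share of entries, 0.00669%, was called, with 4 members higher and 0 lower at an unadjusted p under 0.05, beside 2.24% and 1.08%. The fitted changes were above 0 for 66 of 90 members, beside 60.9% of all entries, and for all 7 complex I assembly factors, a group singled out after its values were seen, with a median of 0.34. None of the 7 passed, and Ndufaf3 in shEVX1 replicate 2 was below its control (7.21 against 7.58 FPKM). The largest of the 7 was Ndufaf6 (14.1 ± 1.05 against 10.02 FPKM, 0.45 ± 0.26, adjusted p = 1).

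In shFendrr no member passed, beside 0.147% of entries. At an unadjusted p under 0.05, 0 members were higher and 4 lower, beside 2.77% and 4.26%. Both libraries were below both controls for 24 members (26.7%) and above both for 2 (2.22%), beside 15.7% and 14.4% of entries. The lateral mesoderm markers Hand1 and Foxf1 moved with the group, both lower in both libraries, with sums of 58.9 and 36.2 FPKM against 128 and 153 FPKM in the controls. Sox17 and Gata6 were also below both controls, and the part of these markers was not tested. Ndufa6, an accessory subunit of complex I, was at 116 ± 19.6 against 163 ± 18.9 FPKM (SD, n = 2 each; -0.49 ± 0.15, adjusted p = 0.548). Cytb and Cox2, encoded by mitochondrial DNA for complexes III and IV, had higher values in shFendrr (0.97 ± 0.21 and 1.06 ± 0.35) and did not pass either (adjusted p = 0.224 and 0.563). The shLhx1os pair has no replicate and no test. Hand1 and Foxf1 summed to 11.4 FPKM there against 216 FPKM in the control. In this pair 3 members were at least 1.5-fold higher and 12 at least 1.5-fold lower (3.33% and 13.3%), beside 15.8% and 21.8% of entries. Among members above 5 FPKM the lowest values relative to control were those of Cox7a1 (12.6 against 36.0 FPKM) and Cox6b2 (39.6 against 81.7 FPKM), and the highest that of Ndufb6 (84.4 against 46.9 FPKM). The median change, -0.06, equalled that of all entries.

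Other genes of the pathway were taken from lists by function. Their counts between the cultures stand beside 30.3% higher and 29.5% lower of all entries, and the differences from these shares were not tested. Of 13 further nuclear respiratory genes measured, 3 were higher and 4 lower in the retinoic acid controls. Cycs, cytochrome c, rose (19.01 to 31.8 FPKM, 0.79 ± 0.11), Usmg5, a further small subunit of ATP synthase, fell (209 to 71.1 FPKM, -1.48 ± 0.15), and Etfa, of the flavoprotein that feeds electrons from fat oxidation, fell (-1.68 ± 0.12). The lowest change of that list was -3.28, for 2010107E04Rik at 2.65 and 5.04 FPKM against 23.1 to 296 FPKM. Of 8 measured entries on mitochondrial DNA 3 were higher and 1 lower. Cytb had the highest change, at 122 and 131 FPKM against 27.8 to 40.8 FPKM (1.90 ± 0.17, limma adjusted p = 6.33e-06). The lowest was -3.28, for the entry DQ539915 at 104 and 122 FPKM against 525 to 2250 FPKM. Poly(A) selection captures mitochondrial RNA unevenly, so these levels are not comparable with nuclear ones. In the citric acid cycle list 5 of 18 rose, among them Idh2 (1.23 ± 0.12), and 8 fell, among them Pdhb of pyruvate dehydrogenase (-1.56 ± 0.12). Of 20 glycolysis genes 4 rose, including Gapdh (0.74 ± 0.09), and 8 fell, including the glucose transporter Slc2a3 (-1.95 ± 0.19) and lactate dehydrogenase Ldha (-1.53 ± 0.13). Of 27 assembly factors outside the name rule 6 rose and 7 fell, led by Ecsit of complex I (1.19 ± 0.11).

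Regulators of mitochondrial biogenesis and the carriers were measured too, beside the same shares of all entries (30.3% higher and 29.5% lower). Of 15 regulators 1 rose, the transcription factor Nrf1 (17.9 to 30.6 FPKM, 0.73 ± 0.13, adjusted p = 0.000537), and 6 fell, among them Gabpa (-0.75 ± 0.13) and Yy1 (-0.68 ± 0.10). Tfam, which packages mitochondrial DNA, did not pass (-0.08 ± 0.13). Of 7 nucleotide and phosphate carriers or porins 4 fell and none rose at the adjusted threshold, with Vdac2 at 31.3 and 28.1 FPKM against 99.1 to 203 FPKM (-2.26 ± 0.10, adjusted p = 4.05e-08). Vdac2 was above both of its controls in shNr2f1as (0.90 ± 0.12, adjusted p = 0.0161) and in the libraries labelled shPou3f3os (0.79 ± 0.12, adjusted p = 0.0243). In the latter the adenine nucleotide carrier Slc25a5 was lower (-0.55 ± 0.12, limma adjusted p = 0.0411), as was Ldhb (-0.81 ± 0.18, adjusted p = 0.0446). Pdha1 was higher there (0.48 ± 0.10, adjusted p = 0.0409). These knockdown calls, Vdac2 included, stand beside 0.676% of all entries called in shNr2f1as and 2.32% in shPou3f3os. They use the same controls, on which the shPou3f3os calls above depended, and fits with 1 library left out are not given for these genes.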

How the data were processed

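TRIzol extraction, oligo-dT purification of poly(A) RNA and a strand-specific mRNA library kit were used, per the labels' protocols. The authors deposited FPKM values, 1 column per library, and the submitters' processing notes name CASAVA, TopHat2 2.0.11 and the builds mm10 and mm9. No source used here gives the quantifier, annotation or strand setting. Only 4.68% of matched symbols end within 1000 bp of GRCm38.p6, so no position from the table is printed.

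Counts were not used here. The commonest ratio between low loci gave depths of 0.97 to 1.33 relative to the Evx1as control, and absolute depth is unknown. The analysis used log2(FPKM + 1), on which low genes change less. The 14942 entries reaching 1 FPKM in 2 or more libraries entered 1 linear model of 12 group means in limma 3.58.1 (R 4.3.3) with a trended variance prior, two-sided. Residual degrees of freedom (7) come from the 7 groups with 2 libraries, and the 5 single libraries are assumed to vary alike. The script was tested on simulated data.

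Members, gene lists and tests were chosen with earlier results of these data known. Genes were named by rule: called members (up to 6 rises and 6 falls), otherwise the 3 largest values each way without overlap between arms, the tissue-restricted isoforms, the most abundant and most variable members of each complex, and up to 3 called genes of each other list; Ndufs7, Ndufs8, Ndufs1, Ndufa9, Sdhb, Cox5b, Cox7b, Cox7c and Uqcrc1 and others given to complete a complex were chosen after their values were seen. GC content came from GENCODE M21 transcripts. Alternatives covered pseudocount, filter, scaling, variance prior, sample choice, the replicate block and GC.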

Additional observations from a re-analysis of the deposited data

How the results depend on the processing

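Of 212 recomputed counts and medians, 185 stayed within the limits set and 27 moved. The limits were 1.5 times for a count and the spread of library medians for a median. They do not check direction, so a median near 0 can change sign within them. All 12 genes named for the culture comparison kept their direction and passed under each of the 20 or 21 alternatives run for them. In some of these fits 1 arm is a single library. For Ndufa4l2 this is no support, because it met the floor only through the culture where it was high. Of 775 values of named genes 743 stayed on their side of the threshold, 11 lost it and 21 gained it, and none reversed.

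The count of members called in shPou3f3os, 2, was 0 without an expression filter and when the experiment was modelled alone, 1 with a variance prior without a trend, 6 with the GC trend taken out and 5 with GC and length trends taken out. With 1 replicate left out it ran from 0 to 16, and its median from -0.28 to -0.13. The count in shNr2f1as, 0, was 2 over entries with a GC value, 4 with the GC trend and 3 with both trends taken out. With 1 replicate left out it ran from 0 to 5, and its median from -0.23 to -0.049. In shSox21os these ran from 0 to 3 and from -0.14 to 0.044, and in shFendrr the count ran from 0 to 1. A pseudocount of 5 gave 1 call in shFendrr. Most of these counts have no share of all entries beside them. They describe how a count moved with the processing and are no result about the members. The shLhx1os median, -0.063, was 0.021 with libraries rescaled to the same total, 0.033 with rescaling by the median ratio, 0.063 with the GC trend and 0.051 with both trends taken out, so it has no settled sign. The culture median ran from 0.12 to 0.27 with 1 control left out. The cause of these moves was not tested.

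With a replicate block, 8 members passed in shPou3f3os, 4 in shNr2f1as and 0 in shFendrr. The shares of all entries called with the block are not given here, so these counts are no result about the members. Deviations of same-numbered libraries correlated at 0.35 in the Fendrr experiment, 0.30 between the controls and shNr2f1as and -0.02 between the controls and shPou3f3os. Over the members alone these values were 0.02, 0.46 and -0.21. The numbers were not taken as pairs because the labels do not say what they share, and these correlations do not settle it. No interval from read counts could be given. With 7 residual degrees of freedom, and single libraries in 5 groups, small changes cannot be told from library spread.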
